A study of Homo sapiens with 6 samples.

Results

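The 10 genes described here form the core of the circadian clock: the activators CLOCK and ARNTL (now BMAL1), the repressors PER1, PER2, PER3, CRY1 and CRY2, the nuclear receptors NR1D1 and NR1D2 (also called REV-ERBα and REV-ERBβ), and BHLHB2 (now BHLHE40 and also called DEC1). They were chosen by name from a table of 17990 genes. For 9 the table gave the symbol, while the PER2 line had no symbol and was taken by its description as period 2. All 10 averaged 20 or more counts per library, as did 11916 genes of the table. RNA was sequenced from LNCaP cells, a line from a human prostate cancer. The cells had spent days in medium without phenol red and with serum stripped of hormones before dihydrotestosterone (DHT), a natural androgen, was added at 10 nM. Untreated cells (0 h) gave 1 library, as did cells exposed to DHT for 3, 6, 12, 24 or 48 h, so no spread between replicates was known and no test across samples was made. Libraries of untreated cells at later times were not used here, so hours with DHT and hours in culture cannot be told apart.

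The circadian clock is a transcriptional feedback loop. CLOCK and ARNTL pair and bind E-boxes in the promoters of the PER, CRY, NR1D and BHLHB2 genes. The PER and CRY proteins then return to the nucleus and block the pair, BHLHB2 competes for the same E-boxes, and the NR1D receptors repress ARNTL and other genes through a response element that they share with the ROR receptors. Cells in culture each run this loop, and a change of medium or a steroid hormone can set many of them to one phase. PER1 is also known as a gene that the glucocorticoid receptor acts on directly.

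The libraries held 13179917 to 20587956 counts. Levels are given as CPM, counts scaled to the same total in each library, with exact Poisson 95% intervals; ratios carry exact conditional binomial 95% intervals. Both cover counting error only. A gene is said to rise or fall where its log2(CPM + 1) was 2-fold or more away from that at 0 h, a scale that understates the change of low genes. Markers of luminal prostate cells were present in every library, among them KLK3 at 4566 to 11950 CPM. The 3 basal markers summed to 0.332 to 0.895 CPM. Of the fibroblast and leukocyte markers, COL1A1 at 31.2 to 64.3 CPM and CD68 at 13.3 to 18.3 CPM were the 2 above 1 CPM, while COL1A2 and CD3E each had 0 counts in 5 libraries and PTPRC in 3; their part in the results was not tested. At 12 h, genes of chromosome 4 were at a median of 10.4% of what the 6 h and 24 h libraries averaged, those of distal chromosome 15 at 8.04% and all others of known chromosome at 104%. CLOCK lies on chromosome 4 and stood at 11.04% by this measure, so its 12 h value is left out.

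The clock genes did not move as a group. PER1 rose by 3 h and stayed past 2-fold until 24 h, BHLHB2 fell by 3 h and came partly back, and NR1D1 fell in steps from 6 h. CRY1 rose at 12 h, PER3 at 6 h, NR1D2 at 6 and 48 h, and CLOCK at 6, 24 and 48 h, while ARNTL, PER2 and CRY2 stayed within 2-fold of 0 h throughout. Once a trend with GC content, given further on, was subtracted, the rises of CLOCK, NR1D2 and PER3 and the fall of NR1D1 at 6 h were within 2-fold, and the other changes were still past it. At 3 h, 1 of 10 members was higher and 1 lower, where 0.747% of all genes were higher and 0.864% lower. At 6 h, 4 were higher and 2 lower, against 15.3% and 3.01% of all genes. At 12 h, 2 of 9 were higher and 1 lower, where outside the depleted regions 11.6% and 3.86% of genes were. At 24 h, 2 of 10 were higher and 2 lower, against 10.5% and 10.8%, and at 48 h 2 were higher and 1 lower, against 15% and 7.33%. The median change of the members was -0.12, 0.71, 0.31, -0.19 and 0.17 in the order of time, where that of all genes was -0.08, 0.08, 0.08, -0.09 and -0.06. With the GC trend subtracted, the median of the members was 0.03, 0.37, 0.05, -0.21 and 0.04. In bulk RNA, fewer cells with a transcript and less of it per cell cannot be told apart.

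**Figure D1:**
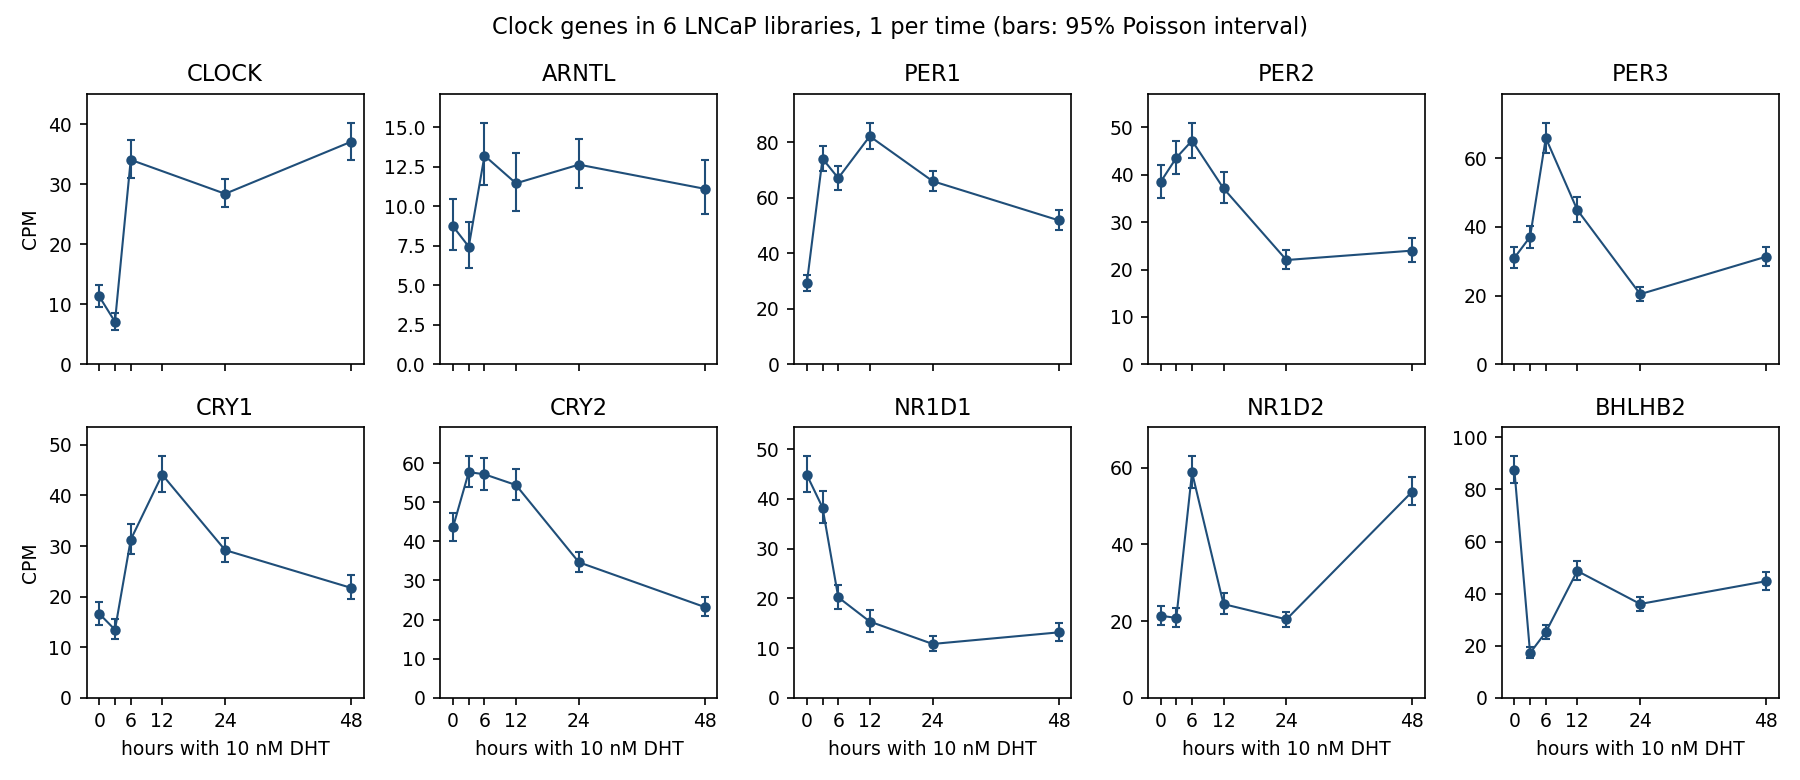
Level of each clock gene in CPM (vertical axis, from 0) against hours with DHT (horizontal axis), 1 library per point, with exact Poisson 95% intervals as bars. PER1 sits at 29.1 CPM at 0 h and between 51.9 and 82.2 CPM afterwards, BHLHB2 drops from 87.6 to 17.2 CPM by 3 h, and CLOCK has no point at 12 h.

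The transcripts differ in GC content, and so did their measured changes. Across all genes the change from 0 h correlated with the GC content of the transcript at r = 0.231 at 3 h, and at -0.740, -0.619, -0.517 and -0.560 at 6, 12, 24 and 48 h. Genes are not independent replicates, and all these values share the 0 h library. Among the members, CLOCK (37.2% GC) and NR1D2 (38.5%) lie low in the range of all genes, above 4.37% and 8.27% of them, and PER1 (62.7%) and NR1D1 (59.5%) high, above 90.6% and 81.1%. Changes are therefore also given with the trend over all genes subtracted, called GC-corrected here. The source of the trend was not tested. Of 49 values of members, 18 were past 2-fold before the correction, 12 after it and 11 in both. After it 1 member was higher and 1 lower at 6 h, 1 and 2 at 24 h, and 1 and 1 at 48 h, while the counts at 3 and 12 h were as before. The corresponding background was 0.940% higher and 0.423% lower at 3 h, 3.74% and 1.55% at 6 h, 4.17% and 2.90% at 12 h, 7.06% and 6.54% at 24 h, and 7.22% and 4.77% at 48 h.

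**Figure D2:**
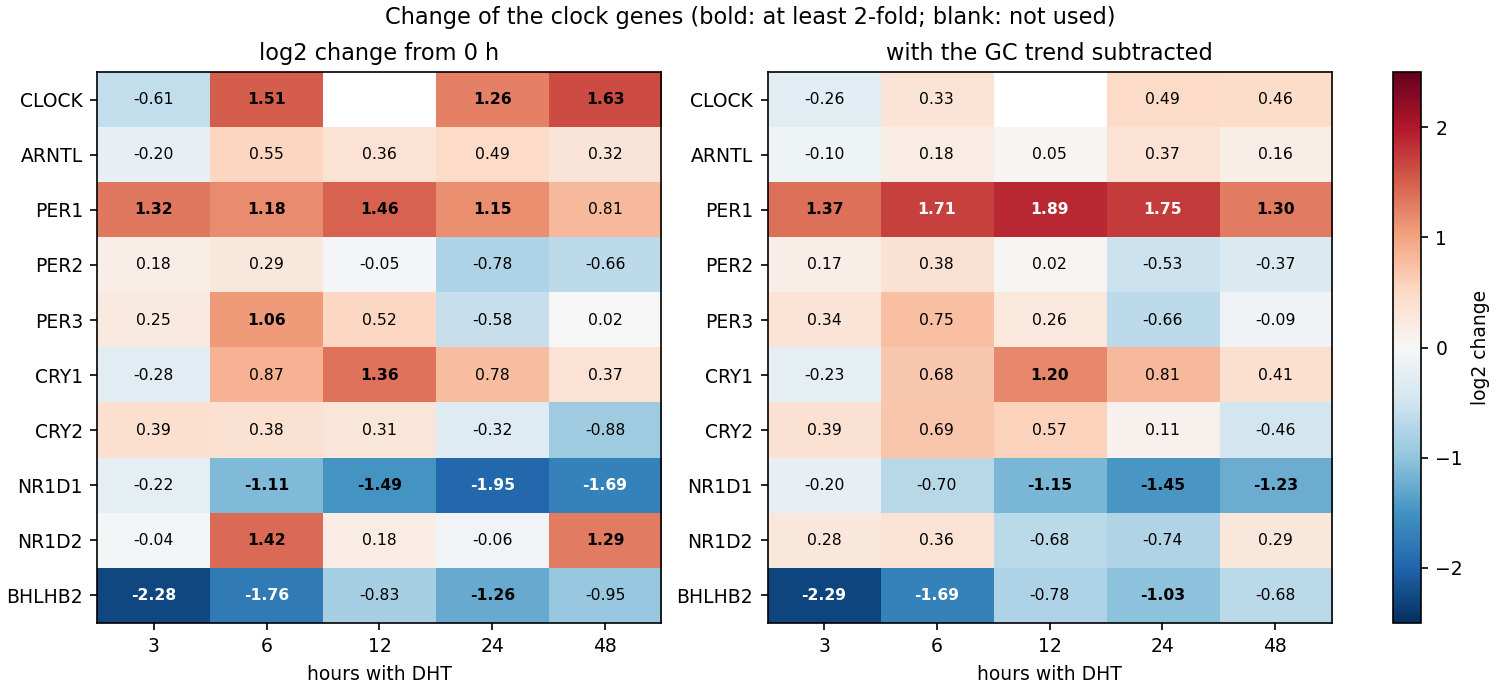
log2 change from 0 h of each clock gene (rows) at each time with DHT (columns), as measured on the left and GC-corrected on the right; red is higher and blue lower than 0 h, and bold values are 2-fold or more. PER1, NR1D1 and BHLHB2 keep bold values on both sides, while those of CLOCK and NR1D2 appear only on the left.

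CLOCK, the histone acetyltransferase subunit of the activator pair, had 11.3 CPM at 0 h, 7.09 at 3 h, 34.1 at 6 h, 28.4 at 24 h and 37.1 at 48 h. The last 3 libraries used were thus all well above the first 2. At 6 h the ratio to 0 h was 3.01 (95% interval 2.50 to 3.65) and the log2 change 1.51, followed by 1.26 at 24 h and 1.63 at 48 h. GC-corrected, these were 0.33, 0.49 and 0.46, all within 2-fold. The largest step lay between 3 and 6 h, 4.81-fold (3.87 to 6.03), a log2 step of 2.12 that was 0.60 after correction.

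ARNTL, the partner of CLOCK, moved least among the 10. It had 8.73, 7.44, 13.2, 11.4, 12.6 and 11.1 CPM in the order of time, with the highest value 1.77-fold (1.39 to 2.28) above the lowest. Its range over the libraries exceeded that of 34.8% of genes. The count ratio of CLOCK to ARNTL within a library does not depend on the scaling. It was 1.30 at 0 h, 0.952 at 3 h, 2.58 at 6 h, 2.25 at 24 h and 3.34 at 48 h, and GC-corrected the log2 change of the ratio was 0.15, 0.12 and 0.30 at 6, 24 and 48 h.

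PER1, a repressor of the pair that is also induced acutely by many signals, had 29.1 CPM at 0 h and 74.1, 67.1, 82.2, 66.0 and 51.9 CPM at 3 to 48 h. Every DHT library lay above the untreated one, and their intervals did not overlap with it. The ratio to 0 h was 2.54 (2.26 to 2.87) at 3 h and 2.82 (2.51 to 3.18) at its highest, at 12 h. By 48 h it was 1.78 (1.57 to 2.02), a log2 change of 0.81. PER1 has a GC-rich transcript, and its GC-corrected changes were 1.37, 1.71, 1.89, 1.75 and 1.30, past 2-fold at all 5 times. All of these rest on the single 0 h library, since the DHT libraries differed among themselves by less than 2-fold.

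PER2 and PER3, the other two period genes, did not share this course. PER2 had 38.5, 43.6, 47.2, 37.1, 22.0 and 24.0 CPM in the order of time. Its 24 h level was 0.572 times that at 0 h (0.503 to 0.651), within 2-fold, and 0.466 times that at 6 h (0.412 to 0.527). PER3 had 31.0, 37.1, 65.8, 44.9, 20.4 and 31.3 CPM, a single high point at 6 h with a ratio of 2.13 (1.89 to 2.40) to 0 h. That log2 change of 1.06 was 0.75 GC-corrected. From 6 to 24 h PER3 went down by a log2 step of -1.64, which remained -1.40 after correction. PER3 was back at its 0 h level at 48 h, with a ratio of 1.01 (0.884 to 1.16).

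The proportion of the period genes changed with these courses. PER1 had 0.757 counts for each of PER2 at 0 h, 1.70 at 3 h, 1.42 at 6 h, 2.21 at 12 h, 3.00 at 24 h and 2.16 at 48 h. The interval at 0 h, 0.662 to 0.866, lay below those of all DHT libraries. PER3 shares 868 of its exon bases with UTS2, a gene on the opposite strand, in the GENCODE v29 annotation and 376 with another antisense transcript. UTS2 had 1 count at 6 h and 0 in the other libraries.

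CRY1 and CRY2, the cryptochromes that block the activator pair together with the PER proteins, moved at different times. CRY1 had 16.6, 13.5, 31.2, 44.1, 29.2 and 21.7 CPM in the order of time, lowest at 3 h and highest at 12 h. The 12 h library was 2.65-fold (2.27 to 3.11) above 0 h, a log2 change of 1.36 that was 1.20 after GC correction. CRY2 had 43.6, 57.7, 57.1, 54.4, 34.6 and 23.2 CPM. It was highest from 3 to 12 h and lowest at 48 h, where its ratio to 0 h was 0.532 (0.464 to 0.608) and its log2 change -0.88, or -0.46 after correction. Counts of CRY1 for each count of CRY2 were 0.381, 0.233, 0.547, 0.811, 0.843 and 0.937. The intervals at 12, 24 and 48 h lay above those of the first 3 libraries. GC-corrected, the ratio differed from 0 h by log2 values of 0.63, 0.70 and 0.87 at those times.

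NR1D1, the heme receptor that represses ARNTL, fell from 6 h on. It had 44.8 CPM at 0 h, 38.3 at 3 h, 20.2 at 6 h, 15.3 at 12 h, 10.8 at 24 h and 13.2 at 48 h. No DHT library from 6 h on overlapped with the first 2. Its ratio to 0 h was 0.451 (0.389 to 0.521) at 6 h and 0.242 (0.206 to 0.282) at 24 h. The log2 changes of -1.11, -1.49, -1.95 and -1.69 from 6 h on became -0.70, -1.15, -1.45 and -1.23 with the GC trend subtracted, so the value at 6 h was then within 2-fold.

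NR1D1 overlaps THRA, which encodes a thyroid hormone receptor on the opposite strand. In GENCODE v29 they share 263 bases, 9.49% of the exon bases of NR1D1, and whether the counting used strand is not given in the sources used here. THRA had 148, 124, 74.8, 66.1, 50.3 and 54.8 CPM. Reads from the shared stretch cannot be assigned to one of the pair. NR1D1 had 0.303 counts for each of THRA at 0 h (0.276 to 0.332) and 0.215 at 24 h (0.186 to 0.249), so NR1D1 was lower at 24 h also relative to THRA.

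NR1D2, the close relative of NR1D1, followed another course, with 21.4, 20.8, 58.8, 24.4, 20.4 and 53.8 CPM in the order of time. As measured, the 6 h and 48 h libraries stood high and the rest lay near each other. The ratio to 0 h was 2.75 (2.39 to 3.16) at 6 h and 2.51 (2.19 to 2.89) at 48 h. GC-corrected, these log2 changes of 1.42 and 1.29 were 0.36 and 0.29. At 3, 12 and 24 h the log2 changes were -0.04, 0.18 and -0.06 as measured and 0.28, -0.68 and -0.74 corrected. After correction the course was thus low at 12 and 24 h rather than high at 6 and 48 h. A pair of its steps stayed past 2-fold after the correction. From 6 to 12 h it fell by a log2 step of -1.23 (-1.04 corrected), and from 24 to 48 h it rose by 1.35 (1.03 corrected). NR1D2 had 0.477 counts for each of NR1D1 at 0 h (0.413 to 0.551) and 4.09 at 48 h (3.49 to 4.80), passing through 0.544, 2.91, 1.59 and 1.89. The log2 change of this ratio from 0 h was 0.19, 2.61, 1.74, 1.98 and 3.10 at 3, 6, 12, 24 and 48 h. GC-corrected, it was 0.48, 1.06, 0.47, 0.70 and 1.52.

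**Figure D3:**
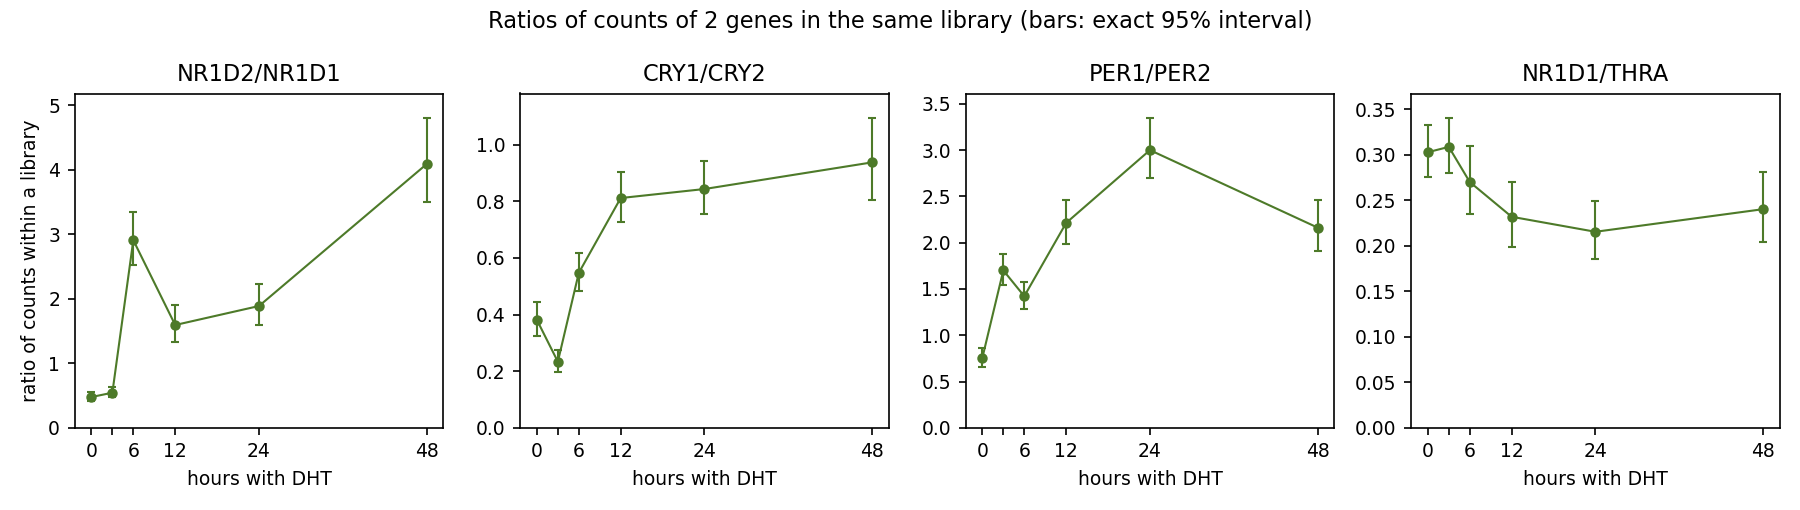
Counts of 1 gene divided by counts of another in the same library (vertical axes, from 0) against hours with DHT, with exact 95% intervals, for 3 pairs of clock genes and for NR1D1 over THRA. The NR1D2/NR1D1 ratio goes from 0.477 to 4.09 with a dip at 12 h, CRY1/CRY2 from 0.381 to 0.937, and NR1D1/THRA from 0.303 to 0.240. The ratios are as measured, without GC correction.

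BHLHB2, a basic helix-loop-helix repressor that binds E-boxes and is also known to respond to low oxygen, had 87.6 CPM at 0 h, 17.2 at 3 h, 25.2 at 6 h, 48.7 at 12 h, 36.0 at 24 h and 44.8 at 48 h. All 5 DHT libraries lay below the untreated one. The ratio to 0 h was 0.196 (0.170 to 0.226) at 3 h and 0.511 (0.464 to 0.563) at 48 h. Log2 changes of -2.28, -1.76 and -1.26 at 3, 6 and 24 h were past 2-fold and were -2.29, -1.69 and -1.03 after GC correction, while those at 12 and 48 h, -0.83 and -0.95, were not. Its range over the libraries exceeded that of 94.7% of genes, against 94.2% for CLOCK, 90.4% for NR1D1 and 78.1% for PER1. These ranges are as measured, without GC correction. After it, the changes of CLOCK lay between -0.26 and 0.49 at the times used, and those of PER1 reached 1.89.

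**Figure D4:**
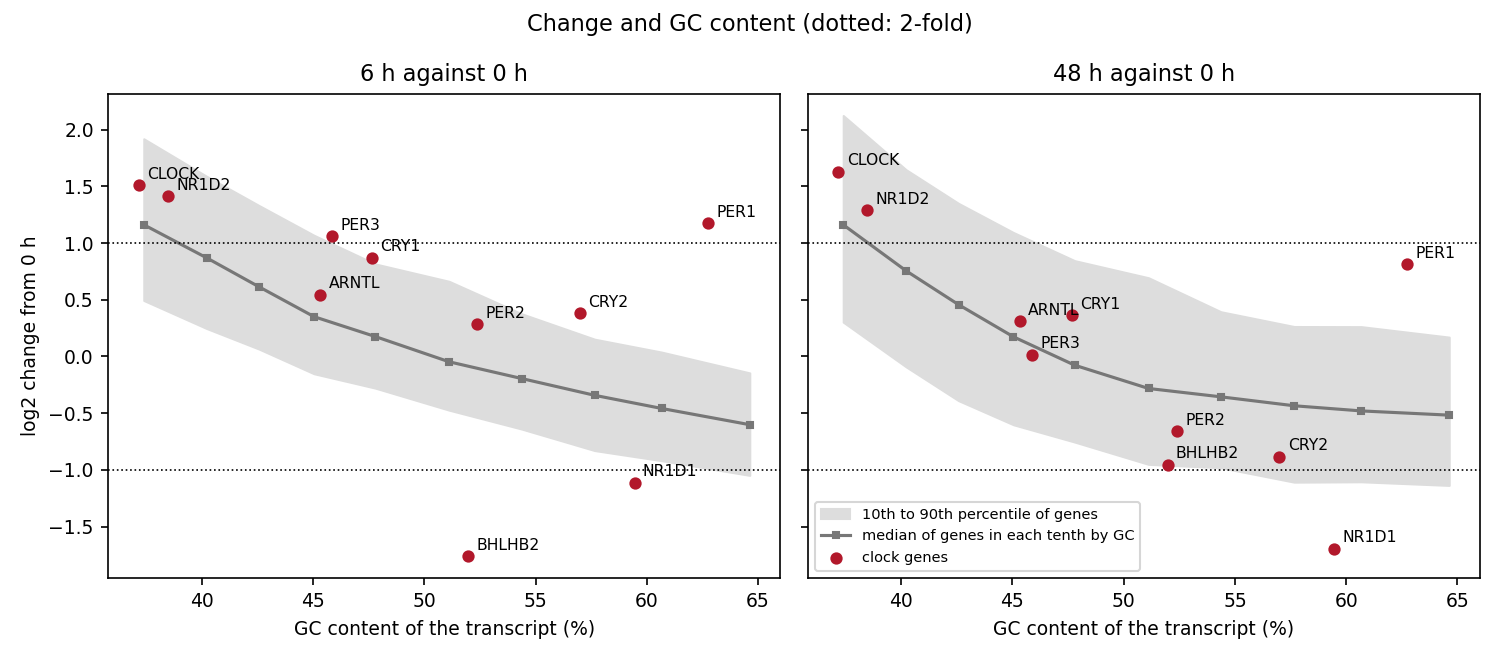
log2 change from 0 h (vertical axis) against GC content of the transcript in percent (horizontal axis) at 6 h and 48 h; red points are the clock genes, the grey line joins medians of equal bins of all genes by GC content and the band spans the middle of each bin (10th to 90th percentile). CLOCK and NR1D2 lie near the high left end of the grey line, whereas PER1 lies above the band and NR1D1 below it.

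As measured, steps between the DHT libraries do not rest on the 0 h library. The GC-corrected steps use trend curves that were fitted to changes from 0 h. From 3 to 6 h, 3 of 10 members rose (CLOCK, CRY1 and NR1D2) and 0 fell, where 20.9% of all genes rose and 1.40% fell. GC-corrected, 0 members passed 2-fold in either direction, against 4.12% of genes higher and 1.67% lower. From 6 to 12 h, 0 of 9 rose and 1 fell (NR1D2), against 0.488% and 0.858%. The same fall was past 2-fold after correction, against 0.453% higher and 0.607% lower. From 12 to 24 h, 0 of 9 rose and 1 fell (PER3, a log2 step of -1.10), against 0.370% and 2.07%. After correction 0 members passed, PER3 with -0.91, against 0.644% and 1.13%. From 24 to 48 h, 1 of 10 rose (NR1D2) and 0 fell, against 1.53% and 0.185%. After correction the same member rose, against 0.785% and 0.233%. Over the longer step from 6 to 24 h, which does not use the 12 h library, 0 rose and 3 fell (PER2, PER3 and NR1D2), against 1.60% and 6.29%. PER3 and NR1D2 were the 2 that passed after correction, against 2.74% higher and 3.24% lower.

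The promoters of PER1, BHLHB2, NR1D2 and NR1D1 are shown because these genes share the E-box as a known control element and yet, as measured, went in different directions. The rises of NR1D2 were within 2-fold after GC correction. Each run is the 250 bases before the gene's start in RefSeq on GRCh38.p14, 5′ to 3′ on the strand of the gene, with the motifs found in capitals. PER1 is at chr17:8152405-8152654, minus strand, BHLHB2 at chr3:4979187-4979436, plus strand, NR1D2 (the start with the motifs, of 2 listed) at chr3:23945871-23946120, plus strand, and NR1D1 at chr17:40100590-40100839, minus strand. Capitals mark the E-box CACGTG in PER1 and BHLHB2, 2 of these and a D-box, read on the other strand, in NR1D2, and the E-box variant CACGTT, read on the other strand, in NR1D1.
PER1: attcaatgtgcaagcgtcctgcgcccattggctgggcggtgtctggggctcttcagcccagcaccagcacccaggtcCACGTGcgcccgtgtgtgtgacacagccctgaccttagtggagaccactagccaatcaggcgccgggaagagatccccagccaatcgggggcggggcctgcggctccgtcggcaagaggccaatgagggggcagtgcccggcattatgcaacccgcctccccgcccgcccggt
BHLHB2: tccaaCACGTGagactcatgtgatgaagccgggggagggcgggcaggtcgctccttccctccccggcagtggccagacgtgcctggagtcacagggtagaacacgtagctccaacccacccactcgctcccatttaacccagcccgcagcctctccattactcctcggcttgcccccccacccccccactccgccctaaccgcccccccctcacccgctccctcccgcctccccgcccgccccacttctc
NR1D2: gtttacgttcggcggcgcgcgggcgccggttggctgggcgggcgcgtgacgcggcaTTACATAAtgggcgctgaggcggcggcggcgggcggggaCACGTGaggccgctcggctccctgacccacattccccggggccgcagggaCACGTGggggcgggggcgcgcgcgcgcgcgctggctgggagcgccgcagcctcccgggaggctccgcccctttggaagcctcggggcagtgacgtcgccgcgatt
NR1D1: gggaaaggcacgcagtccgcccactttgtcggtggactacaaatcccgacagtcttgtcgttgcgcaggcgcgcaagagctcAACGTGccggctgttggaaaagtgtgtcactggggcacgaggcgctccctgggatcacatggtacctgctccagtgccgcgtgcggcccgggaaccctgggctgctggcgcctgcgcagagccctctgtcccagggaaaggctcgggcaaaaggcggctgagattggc

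All 10 members had an entry among the 35116 promoters of that table, some with 2 starts, and 5 motifs were searched on both strands. A member counted if any of its starts had the motif, whereas the shares are of single promoters, so the units differ. The E-box CACGTG was found before 3 members (PER1, NR1D2 and BHLHB2) and in 6.34% of all promoters. The E-box variant CACGTT, which differs from it in the last base, was found before CLOCK, PER2, CRY1, CRY2 and NR1D1 and in 4.55% of promoters. The D-box, as TTATGTAA or TTACGTAA, was found before PER3 and NR1D2 (0.940%), and TAGGTCA, the element of the NR1D and ROR receptors, before CRY2 (1.61%). A full androgen response element, AGAACA and TGTTCT with 3 bases between them, was found before 0 members (0.00285%). In this window the PER1 E-box begins 173 bases before the start and that of BHLHB2 245 bases before it. Of the 3 members with CACGTG, PER1 rose at 3 h, BHLHB2 fell and NR1D2 had a log2 change of -0.04. These matches describe the letters only.

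Levels were compared between genes per kilobase of transcript, with lengths from GENCODE v29. At 0 h BHLHB2 had 25.2 CPM per kb, NR1D1 16.2, CRY2 10.4, PER1 6.19, PER2 6.02, CRY1 5.09, PER3 4.99, NR1D2 4.07, ARNTL 3.18 and CLOCK 1.097. From PER1 to ARNTL each interval overlapped with that of the next gene, and the other neighbours lay apart. At 48 h BHLHB2 still led with 12.9 CPM per kb, ahead of PER1 with 11.03 and NR1D2 with 10.2, and NR1D1 had come down to 4.75. CLOCK was again last, with 3.60 CPM per kb, but its interval overlapped with that of PER2 at 3.76. These levels are not GC-corrected. The 48 h log2 changes of NR1D2 and CLOCK, 1.29 and 1.63, were 0.29 and 0.46 after correction. The PER2 length was taken by gene name, since the accession in its line had no match.

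The rest of the pathway was followed with a list of 20 genes, of which 17 had enough counts; BHLHB3 (now BHLHE41), RORB and FBXL21 had at most 3 counts in any library. None of the 17 passed 2-fold at 3 h. At 6 and 12 h 1 fell (DBP), which is 5.88% of the list, where 3.01% and 3.86% of all genes fell. At 24 h 4 fell (DBP, TEF, HLF and USP2), or 23.5% against 10.8%, and at 48 h 2 fell (DBP and USP2), or 11.8% against 7.33%. With so few genes, the shares at 6, 12 and 48 h are near those of all genes. The median change of the 17 was -0.11, 0.14, 0.03, -0.41 and -0.45 in the order of time. GC-corrected, this median was 0.04, 0.07, -0.01, -0.18 and -0.19. With the GC trend subtracted none was higher at any time, and 0, 0, 2, 3 and 3 were lower in the order of time, where 0.423%, 1.55%, 2.90%, 6.54% and 4.77% of all genes were.

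DBP, a transcription factor of the PAR bZIP family that acts on D-boxes and is itself driven through E-boxes, fell from 6 h on, as NR1D1 did. It had 33.2, 22.6, 10.8, 8.88, 6.02 and 8.71 CPM, and at 24 h stood at 0.182 times its 0 h level (0.148 to 0.222). Its GC-corrected changes from 6 h on were -0.92, -1.30, -1.60 and -1.30. DBP had 0.739 counts for each of NR1D1 at 0 h and 0.535 to 0.662 in the DHT libraries. Its relatives TEF and HLF fell at 24 h: TEF went from 56.3 to 24.4 CPM after 82.7 CPM at 3 h, and HLF from 2.96 to 0.680 CPM, a low level with 39 and 14 counts. GC-corrected, TEF had -0.75 and HLF -1.52 at 24 h. At 48 h HLF had 17 counts and 0.382 times its 0 h level (0.203 to 0.691). That log2 change was -0.89 with the pseudocount, within 2-fold, and -1.27 GC-corrected.

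USP2, a ubiquitin protease known to act on clock proteins, fell at 24 and 48 h to 5.93 and 6.05 CPM from 16.0, with corrected changes of -0.86 and -0.84. RORA, which activates ARNTL, stayed within 2-fold as measured, with log2 changes of -0.59, 0.58, -0.07, -0.65 and -0.51 in the order of time. Its GC content of 35.8% is above that of 1.94% of genes, near the low end of the fitted trend. GC-corrected, RORA had -0.22, -0.73, -1.12, -1.52 and -1.85, so most of the fall at 12 h came from the subtracted trend. The kinases CSNK1D and CSNK1E, which phosphorylate PER proteins, had 100 to 175 and 67.4 to 98.0 CPM per kb and stayed within 2-fold.

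**Figure D5:**
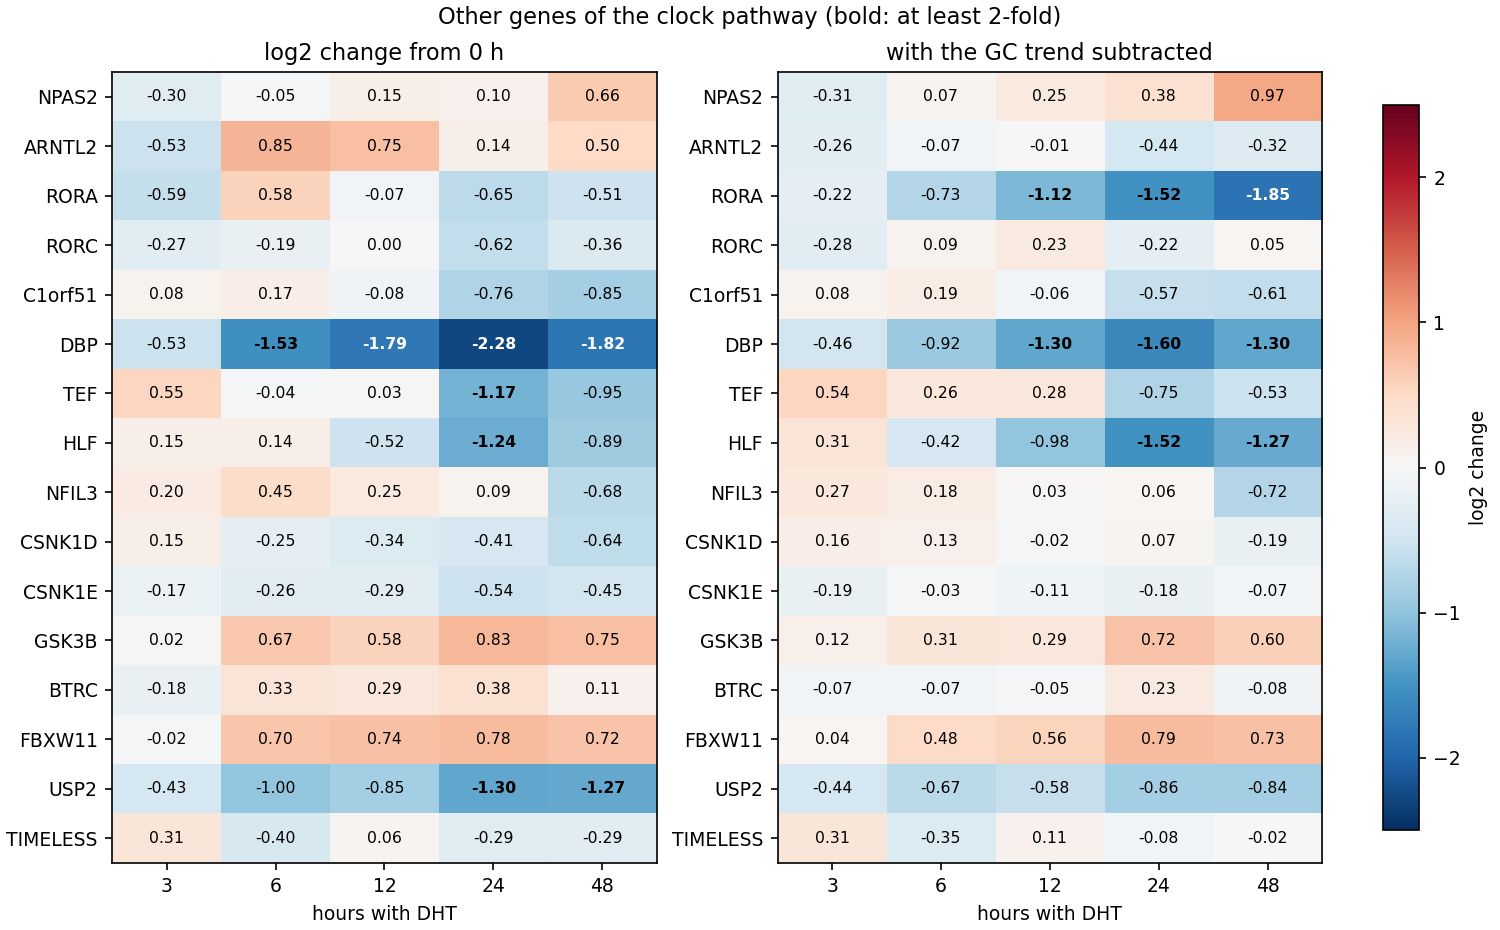
log2 change from 0 h of the other genes of the clock pathway that had enough counts, 1 not reported here left out (rows), at each time with DHT (columns), as measured on the left and GC-corrected on the right, with bold values 2-fold or more. DBP is bold from 6 h on as measured and from 12 h on after correction, and RORA is bold only on the right.

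For each member past 2-fold at any time, the 3 genes with the most similar course were sought among genes outside the depleted regions. Likeness was the root mean square difference of log2(CPM + 1) profiles, each centred on its own mean, over the 6 libraries (5 for CLOCK). The profiles were not GC-corrected, and how far the GC trend shaped the matches was not tested. With about 11070 candidates and so few libraries, close matches are found for most courses, and these are descriptions. BHLHB2 had 1 near neighbour, PFKFB4, an enzyme that controls glycolysis, at a difference of 0.16 with log2 changes of -1.94 at 3 h and -0.67 at 48 h. The next, VASN and CXXC5, were at 0.37 and 0.38. PER1 was closest to NFKBIA, the inhibitor of NF-κB, at 0.14, followed by the replication licensing gene CDC6 and the AP-1 subunit FOSL2, both at 0.16.

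NR1D1 was closest to HSPG2, which encodes perlecan, at 0.06, then to PLCB2 and GDF1 at 0.08 and 0.096. DBP ranked 21 and THRA 43 of 11070 genes by likeness to NR1D1. NR1D1, DBP and THRA are GC-rich, with 59.5%, 65.5% and 60% GC. NR1D2 was closest to the interferon-induced gene IFI44 at 0.12, with log2 changes of 1.43 at 6 h and 1.33 at 48 h, then to CEP152 and ZNF334. CRY1 was closest to GRAMD3 (now GRAMD2B), MARCKS and LPGAT1, at 0.12 to 0.14, and PER3 to TMEM38B, GAS2L3 and FAM40B (now STRIP2), at 0.15 to 0.18. CLOCK was closest to FLJ31818 (now SAMTOR), SEPTIN7 and SOS2, at 0.007 to 0.03 over 5 libraries. At 12 h, where the CLOCK value is not used, those 3 genes had log2 changes of 1.45, 1.27 and 1.06. They were picked for their likeness in the other libraries and give no 12 h value for CLOCK. The tenth of genes lowest in GC content, where CLOCK lies, had a median of 0.94 at 12 h.

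No member had another member as its closest match among the genes compared. The nearest pair was PER2 and CRY2, at a difference of 0.23. PER2 ranked 154 among all genes by likeness to CRY2, and CRY2 529 by likeness to PER2. PER2 was also the member nearest to PER3, at 0.30 and rank 176. The member nearest to NR1D1 was PER2, at 0.53 and rank 2387, and the one nearest to BHLHB2 was ARNTL, at 0.75 and rank 3860.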

How the data were processed

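RNA of LNCaP cells was sequenced in 6 libraries, 1 per time, on an Illumina GAIIx per the labels' protocols. The counts were deposited as whole-number tags per RefSeq transcript, per the file headers. The deposited RPM, which the file headers call ppm, are the same counts scaled by the authors to the library and were used as an alternative. The submitters' processing notes name build hg19; aligner, counter and strand setting are not given in these sources. Totals were 13179917 to 20587956 counts. A floor of 3 counts equals 0.146 to 0.228 CPM. At 0 counts the upper end of the exact Poisson interval was 0.179 to 0.280 CPM.

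Of 18051 lines 50 exact repeats were removed and lines of 1 symbol added, giving 17990 genes. Columns were tied to samples by the time in the header. Genes that averaged 20 or more counts entered (11916); at 12 h, genes of chromosome 4, of distal chromosome 15 (from LCTL on, by order in RefSeq) and of unknown chromosome were left out (11071). CPM used the listed genes and log2 changes a pseudocount of 1. The GC trend was a lowess curve (statsmodels 0.14.6, span 0.3) over 11591 genes with a GENCODE v29 transcript, outside the left-out genes at 12 h. The calculation was tested on simulated data. Python 3.11.15, scipy 1.17.1 and edgeR 4.0.16 (TMM factors only) were used. Named were all members, pathway genes past 2-fold, and the 3 nearest genes of each member past 2-fold; CSNK1D, CSNK1E, RORA, THRA and UTS2 were added after their values were seen. The members and lists were chosen with earlier results of these data known. Results of 1 pathway gene and 1 cell marker are not reported here.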

Additional observations from a re-analysis of the deposited data

How the results depend on the processing

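With 1 library per time, no replicate could be left out. No paired analysis was possible because each group has 1 sample and no test was made. Of the 49 values of members, all stayed within their counting interval under the RPM denominator, median of ratios, TMM factors, totals without the depleted regions, pseudocounts of 0.5 and 0.1 and the leading transcript alone, and none of the 49 changed its side of 2-fold except PER3 at 6 h, at 0.96 with median of ratios and 0.999 with TMM. GC correction moved 27 of the 49, took 7 within 2-fold and brought PER1 at 48 h past it. It left 1 member higher and 1 lower at 6 h and 1 higher at 24 h and at 48 h, and among the other pathway genes 0 higher at 6, 12, 24 and 48 h, 0 lower at 6 h and 2 lower at 12 h. The pathway genes lower at 6 h were 2 with the RPM denominator, median of ratios, TMM and pseudocounts of 0.5 and 0.1, where USP2 joined DBP. Those lower at 48 h were 3 with pseudocounts of 0.5 and 0.1, where HLF joined DBP and USP2. Over all genes, GC correction gave 109 higher and 49 lower at 3 h, 433 and 180 at 6 h, 460 and 320 at 12 h, 818 and 758 at 24 h, and 837 and 553 at 48 h. The uncorrected counts were 89 and 103, 1826 and 359, 1288 and 427, 1249 and 1287, and 1791 and 874. TMM gave 109 and 67 at 3 h and 1581 and 1018 at 24 h, where it moved the median of all genes from -0.09 to 0.04. A pseudocount of 0.1 gave 152 and 212 at 3 h, and a minimum mean of 100 counts gave 270 lower at 12 h and 857 at 24 h, with fewer genes tested. Every change from 0 h and the GC trend rest on the 0 h library, and counting error is the only error known.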
